A study of Mus musculus with 2 samples.

Results

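Transcripts of 10 heat shock chaperone genes were followed across the cell classes of mouse pancreatic islets, in islets of virgin mice and of multiparous mice. The genes were the stress-inducible Hsp70 genes Hspa1a and Hspa1b, their constitutive relative Hspa8, the Hsp40 co-chaperones Dnajb1 and Dnaja1, the Hsp110 gene Hsph1, the Hsp90 gene Hsp90aa1, the small heat shock protein gene Hspb1, and Hspd1 and Hspe1, which encode the mitochondrial chaperonin Hsp60 and its lid Hsp10. They were chosen by gene symbol, with earlier results of these data known, and make up 10 of the 31053 genes in the count matrices. All 10 had UMIs (unique molecular identifiers, 1 per captured RNA molecule) in both libraries, where 20133 (virgin) and 19431 (multipara) genes had any. Both groups were wild-type female mice of the C57BL/6J strain. Multipara mice had entered the breeding at 9 weeks of age and gone through 3 pregnancies, one after another, and their islets were taken 3 weeks after the last delivery, while virgin mice of the same age served as controls. Islets of both groups were kept in medium with serum and then dissociated with trypsin, so every cell had passed through a dissociation that can itself induce these genes. There was 1 library per group and the labels do not give how many mice each holds (the study states only a minimum per group), so the values below compare 2 libraries and none has a replicate check. All intervals are 95% intervals that cover counting error only.

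Heat shock chaperones bind unfolded protein chains and help them to fold, to be kept soluble or to be passed on for degradation. When unfolded protein builds up, the transcription factor HSF1 forms trimers and binds heat shock elements, which are repeats of GAA in alternating orientation upstream of its target genes. Hspa1a, Hspa1b, Dnajb1, Hsph1 and Hspb1 are transcribed chiefly under stress, Hspa8, Hsp90aa1 and Dnaja1 are present in unstressed cells and are induced further, and Hspd1 and Hspe1 fold proteins imported into the mitochondrial matrix. Beta cells make large amounts of insulin, which folds in the endoplasmic reticulum with a separate set of chaperones.

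The upstream sequences are shown to look for the letters of the heat shock element, and because they show how alike Hspa1a and Hspa1b are. RefSeq promoters on GRCm38.p6 were given for 8 of the 10 genes, and those of Hspa8 and Hsp90aa1 were not used here. The 250 bases before each start site were searched for GAANNTTC and TTCNNGAA, each of which is its own reverse complement, so that a search of 1 strand covers both. Matches are in capitals, positions count back from the start site, and overlapping matches run together. The 150 bases before the start are printed for Hspa1a (chr17:34972157-34972306, reverse strand), Hspa1b (chr17:34959239-34959388, reverse strand) and Hspb1 (chr5:135887769-135887918, forward strand).
Hspa1a: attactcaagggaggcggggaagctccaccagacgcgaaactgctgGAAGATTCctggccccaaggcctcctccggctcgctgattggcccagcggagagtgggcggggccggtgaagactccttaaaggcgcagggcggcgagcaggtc
Hspa1b: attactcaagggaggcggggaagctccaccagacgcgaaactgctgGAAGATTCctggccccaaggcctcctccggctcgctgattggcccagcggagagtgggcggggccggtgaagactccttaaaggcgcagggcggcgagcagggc
Hspb1: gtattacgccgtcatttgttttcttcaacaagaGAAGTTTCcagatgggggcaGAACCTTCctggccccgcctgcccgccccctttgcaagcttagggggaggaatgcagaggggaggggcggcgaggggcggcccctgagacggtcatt
Windows of 30 bases around the matches are printed for Hsph1 (chr5:149636351-149636380, reverse strand), Dnaja1 (chr4:40722333-40722362, forward strand) and Hspe1 (chr1:55088053-55088082, forward strand).
Hsph1: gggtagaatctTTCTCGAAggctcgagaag
Dnaja1: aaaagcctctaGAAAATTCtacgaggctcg
Hspe1: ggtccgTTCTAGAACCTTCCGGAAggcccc
Hspa1a and Hspa1b had 1 match each, beginning at -104. Hspb1 had 2, at -117 and -97, and Hspe1 had 3 that overlap, at -89, -84 and -79. The same 3 matches lie in 1 of the 2 Hspd1 promoters, read from the other strand, since Hspe1 and Hspd1 lie head to head on chromosome 1 and their gene models overlap by 112 bases. Dnaja1 had 1 match, at -124, in 1 of its 3 promoters and none in the others. Dnajb1 had no match in either of its 2 promoters. A gene is counted as matching where any of its promoters matched. In all, 7 of the 8 genes had at least 1 match, as had 14.5% of the 27025 genes with a promoter in the table; 2 or more matches occurred in 1.67% of these and 3 or more in 0.163%. A match describes letters and was not tested as a binding site.

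Hspa1a (chromosome 17, 34969190 to 34972156) and Hspa1b (chromosome 17, 34956436 to 34959238) lie on the reverse strand 9951 bases apart (GENCODE M21, GRCm38). Their 250 upstream bases differ at 3 positions and their coding sequences are 99.5% identical over 1923 and 1926 bases. After the stop codon the transcripts diverge, with 52.7% identity over 810 and 643 bases, and the libraries were read from the 3′ end. The 2 genes are given separately and as a sum, which does not depend on how reads were divided between them, although reads that fit both equally well are dropped by this kind of counting.

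The virgin library held 5463 barcodes and the multipara library 5075, with a median of 14214 and 10021 UMIs per barcode, and 7 barcode sequences occurred in both. Mitochondrial genes took 10% or more of the UMIs in 17.8% of virgin and 30.5% of multipara barcodes, which were left out by the filter of the study. After its other limits and the removal of called doublets, 4330 and 3330 cells were left. Cells were then sorted into 9 classes by the share of their UMIs from 1 hormone or by UMIs of marker genes, and a cell that passed several gates entered none. Each class had its own marker genes at or near the top of its gene list. PP-like cells were led by Ppy and Pyy but also held Spp1, a duct marker, and B cell-like cells were led by immunoglobulin genes, Jchain and Mzb1, which plasma cells express highly, with 1 of their 5 markers among the first 10 genes. Beta-like cells numbered 1688 (virgin) and 1528 (multipara), alpha-like cells 1071 and 670, delta-like cells 368 and 317, and the remaining classes between 41 and 257.

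Levels are given as UMIs of a gene per 1000000 UMIs of the class (CPM), summed over cells. Each molecule counts once whatever its length, so levels of different genes stand on 1 scale. Hspa1a and Hspa1b were highest in mesenchymal-like cells, which are pericytes and fibroblasts, and in delta-like cells, which make somatostatin. Summed, they stood at 1297 CPM in virgin and 3072 CPM in multipara mesenchymal-like cells, and at 1237 and 1778 CPM in delta-like cells. Endothelial-like cells had 618 and 602 CPM, macrophage-like cells 396 and 642, and beta-like cells 344 and 493. Alpha-like cells (168 and 166 CPM) and PP-like cells (170.2 and 158 CPM) were lower than all of these, and T cell-like (79.6 and 35 CPM) and B cell-like cells (19.8 and 118 CPM) lowest. Ranges over the 2 libraries overlapped between neighbouring classes, except between delta-like and endothelial-like, beta-like and alpha-like, and PP-like and T cell-like cells. Within the resulting steps neighbours were not told apart, although endothelial-like cells lay above beta-like cells in both libraries.

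Hormone transcripts took 61.9% and 63.1% of all UMIs in beta-like cells, against 29.3% and 30.8% in delta-like cells and 1.16% to 4.15% outside the endocrine classes, which lowers every other gene on the CPM scale. The pair was 3.59-fold higher in delta-like than in beta-like cells of the virgin library and 3.6-fold higher in the multipara library (log2 difference 1.85 in both). Per 1000000 UMIs outside the hormone genes it was 1.94-fold and 1.92-fold higher. On the same scale beta-like cells, at 903 and 1337, stood above endothelial-like cells, at 626 and 617, which reverses their order by CPM. Set against Hspa8, a measure that no scaling changes, the pair gave 47.3 UMIs per 100 Hspa8 UMIs in virgin and 60.5 in multipara beta-like cells. It gave 67.4 and 88.7 in delta-like cells, 16.7 and 15.1 in alpha-like cells and 24.6 and 23.5 in endothelial-like cells. Alpha-like cells were therefore below beta-like and delta-like cells in both libraries by every one of these measures. Hspa1a exceeded Hspa1b by 2.63 to 3.61 times in the endocrine, endothelial-like and macrophage-like classes and by 6.04 and 6.63 times in mesenchymal-like cells.

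Dnajb1, the Hsp40 partner that hands unfolded chains to inducible Hsp70, was also highest in delta-like cells, with 630.0 CPM among virgin and 939 CPM among multipara cells. Mesenchymal-like cells followed at 485 and 279 CPM and endothelial-like cells at 268 in both, and beta-like cells had 182 and 252 CPM. The highest virgin mesenchymal-like cell held 21% of that class's Dnajb1 UMIs, and without it the level was 392 CPM. On the scale of UMIs outside hormone genes delta-like cells stayed highest, at 891 and 1358. Beta-like cells, at 479 and 683, then stood above endothelial-like cells, at 272 and 275. Mesenchymal-like cells, at 492 and 291, were close to beta-like cells in the virgin library and below them in the multipara library. Hsph1, which acts as a nucleotide exchange factor for Hsp70, reached 224 and 297 CPM in delta-like cells and stood between 42.3 and 112 CPM in the other endocrine, endothelial-like, mesenchymal-like and macrophage-like classes. Outside hormone genes Hsph1 was at 317 and 429 in delta-like and 242 and 304 in beta-like cells, a smaller difference than by CPM.

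Hspb1, which holds unfolding proteins in large oligomers and binds the actin cytoskeleton, had the widest range. It was at 1722 and 1474 CPM in endothelial-like cells, 443 and 1341 CPM in mesenchymal-like cells and 527 and 815 CPM in delta-like cells. PP-like cells had 157 and 132 CPM, whereas alpha-like cells had 9.22 and 11.5 CPM and beta-like cells 7.07 and 7.35 CPM. T cell-like cells had no Hspb1 UMI in either library, with upper limits of 8.39 CPM (virgin) and 21.5 CPM (multipara). The values in alpha-like and beta-like cells lie within or close to that limit, and no expression was read from them. After thinning to 5000 UMIs per cell, 63.6% of virgin and 66.8% of multipara delta-like cells had an Hspb1 UMI, against 2.64% and 2.87% of beta-like cells and 0 of 62 virgin macrophage-like cells (exact upper bound 5.78%). Multipara macrophage-like cells gave 8.14%, so shares of this size also occur in a class with few Hspb1 UMIs.

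Hspa8, which carries out routine protein folding and clathrin uncoating, was the most abundant of the 10 genes in every class but mesenchymal-like cells of the multipara library, where Hspa1a had 2669.5 CPM and Hspa8 2117 CPM. It ranged from 728 and 815 CPM in beta-like cells to 2508 and 2565 CPM in endothelial-like cells. Hsp90aa1, the inducible cytosolic Hsp90, was highest in delta-like cells (1248 and 1298 CPM) and lowest in beta-like cells (422 and 399 CPM). Per 1000000 UMIs outside hormones Hspa8 in beta-like cells came to 1912 and 2209 and Hsp90aa1 to 1107 and 1083, above the 1679 and 1925, and the 982 and 1058, of alpha-like cells, so their last place by CPM does not hold on that scale. Dnaja1, a farnesylated Hsp40, was at 838 and 705 CPM in endothelial-like cells and at 209 to 255 CPM in beta-like, alpha-like and PP-like cells. Outside hormones Dnaja1 came to 850.1 and 723 in endothelial-like cells, against 624 and 691 in beta-like cells (1.36- and 1.05-fold). Alpha-like cells had 382 in both libraries and PP-like cells 529 and 511, so the contrast with beta-like cells nearly vanished in the multipara library.

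By CPM, Hspe1 and Hspd1 were highest in different classes. Hspe1 ran from 167 CPM in virgin endothelial-like cells to 718 CPM in multipara T cell-like cells, and Hspd1 from 69 CPM in multipara B cell-like cells to 259.6 CPM in multipara delta-like cells. The highest multipara T cell-like cell held 45.5% of that class's Hspe1 UMIs. Without the highest cell of each library, T cell-like cells had 604 (virgin) and 501 CPM (multipara) of Hspe1. Delta-like cells then had 436 and 516 CPM. On the scale of UMIs outside hormone genes, Hspe1 stood at 633 and 746 in T cell-like and 622 and 755 in delta-like cells. T cell-like cells were thus not above delta-like cells in the multipara library by either measure. Among endocrine classes delta-like cells had most of both genes, with 440.0 and 522 CPM of Hspe1 and 239 and 259.6 CPM of Hspd1. Outside hormone genes their lead over beta-like cells was small for Hspe1, 622 and 755 against 589 and 682 (1.06- and 1.11-fold). For Hspd1 it was 337 and 375 against 275 and 273 (1.23- and 1.37-fold). The lid gave more UMIs than the chaperonin in every class, by 2.14 and 2.49 times in beta-like and by 1.84 and 2.01 times in delta-like cells.

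**Figure D1:**
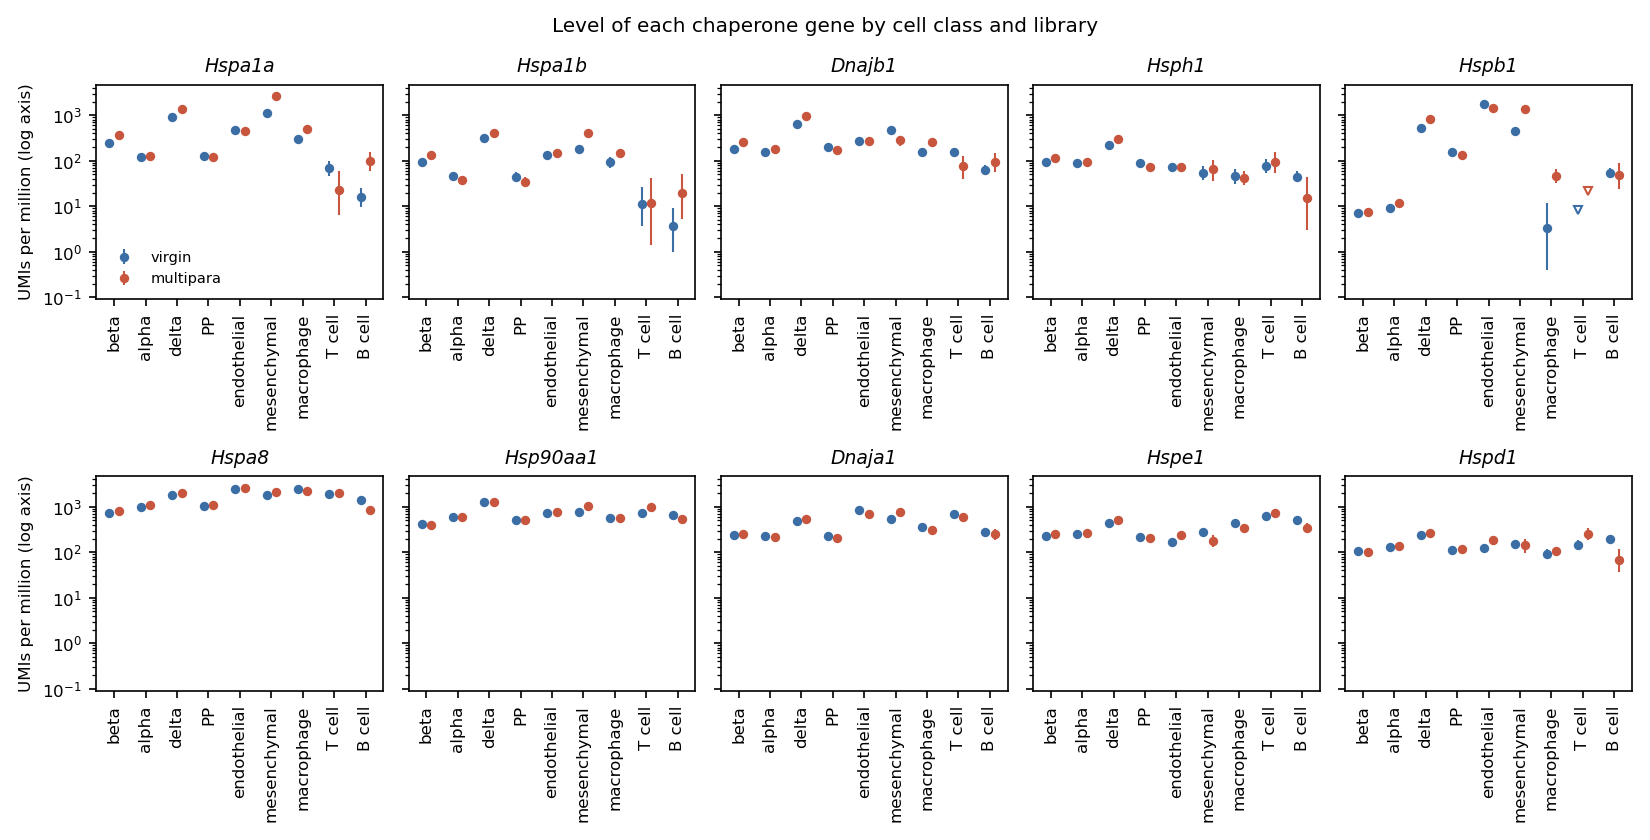
Level of each of the 10 genes in UMIs per 1000000 (log axis) by cell class, with virgin in blue and multipara in red; points are sums over cells of 1 library, bars are exact Poisson 95% intervals, and open triangles mark the upper limit where no UMI was seen. Hspa1a, Hspa1b, Dnajb1 and Hspb1 in the upper row differ between classes far more than the genes in the lower row. Hsph1, also in the upper row, spans from 45 to 224 in the virgin library. Hspb1 spans from 0 in T cell-like cells to 1722 in virgin endothelial-like cells.

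The next comparison asked how chaperone transcripts of beta cells differ after repeated pregnancies. In beta-like cells Hspa1a was at 249.8 CPM (virgin) and 362 CPM (multipara), a log2 ratio (multipara over virgin) of 0.54 (0.50 to 0.57). Hspa1b was at 94.4 and 131 CPM, a log2 ratio of 0.47 (0.42 to 0.53), and the pair at 344 and 493 CPM, a log2 ratio of 0.52 (0.49 to 0.55). Dnajb1 was at 182 and 252 CPM, a log2 ratio of 0.47 (0.43 to 0.51). The inducible Hsp70 genes and their Hsp40 partner were thus 1.38- to 1.45-fold higher in the multipara library.

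The other genes differed less between the beta-like cells of the 2 libraries. Hsph1 was at 92.1 and 112 CPM (log2 ratio 0.29, interval 0.23 to 0.34), Hspe1 at 224 and 252 CPM (0.17, 0.13 to 0.20), Hspa8 at 728 and 815 CPM (0.16, 0.14 to 0.18) and Dnaja1 at 238 and 255 CPM (0.10, 0.07 to 0.14). Hspb1, counted by 344 and 337 UMIs only, gave 0.06 (-0.16 to 0.28), which became 1.44 with equal weight for each cell and 0.38 with no cell filter. Hspd1 was at 105 and 101 CPM (-0.05, -0.11 to 0.00) and Hsp90aa1 at 422 and 399 CPM (-0.08, -0.11 to -0.05). Hspd1 and Hsp90aa1 did not keep a negative sign when TMM scaling was used, which gave 0.04 and 0.01.

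Past a fold of 1.3 in either direction, 3 of the 10 genes were higher in multipara beta-like cells and 0 were lower. Of all 10861 genes with at least 100 UMIs in beta-like cells, 3.26% were higher and 8.33% were lower past that fold. The median log2 ratio of the 10 genes was 0.16, beside -0.08 over all these genes. Hspa1a stood at the 98.2 percentile of all log2 ratios, Hspa1b at 97.7 and Dnajb1 at 97.6, and Hsp90aa1 at 51.2. At a fold of 1.5, which 1.54% of all genes passed, 0 of the 10 genes counted as higher. The 3 genes past a fold of 1.3 were Hspa1a, Hspa1b and Dnajb1. The study had already named them as upregulated in multiparous beta cells from its single-cell data. The list was thus not chosen blind to this outcome, and its count, median and percentiles are a description only.

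Alpha-like cells differed little between the libraries. The pair was at 168 CPM (virgin) and 166 CPM (multipara), a log2 ratio of -0.02 (-0.10 to 0.07). Hspa1a was at 122 and 129 CPM (0.08, -0.01 to 0.18), whereas Hspa1b was at 46.3 and 37.2 CPM (-0.31, -0.49 to -0.14). Dnajb1 was at 156 and 177 CPM (0.18, 0.10 to 0.27) and Hspa8 at 1003 and 1099 CPM (0.13, 0.10 to 0.16). None of the 10 genes was past a fold of 1.3 in either direction, where 2.06% of 9547 genes were higher and 8.55% lower. The median log2 ratio of the 10 genes was 0.07, beside -0.09 over all genes tested.

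Delta-like cells, which had the highest levels among endocrine classes, were higher in the multipara library for the stress-inducible genes. Hspa1a was at 924 and 1377 CPM (log2 ratio 0.58, interval 0.51 to 0.64) and Hspa1b at 313 and 401 CPM (0.36, 0.24 to 0.47). Dnajb1 was at 630.0 and 939 CPM (0.58, 0.50 to 0.65), Hsph1 at 224 and 297 CPM (0.40, 0.27 to 0.54) and Hspb1 at 527 and 815 CPM (0.63, 0.54 to 0.71). Hspe1, at 440.0 and 522 CPM, had a log2 ratio of 0.25 (0.15 to 0.35). Hspa8 (0.13), Hspd1 (0.12), Dnaja1 (0.11) and Hsp90aa1 (0.06) had smaller log2 ratios. The interval of Hsp90aa1 (-0.00 to 0.12) reached 0, as did that of Hspd1 without the highest cell of each library (-0.03 to 0.24). All 10 log2 ratios were above 0, and 4 genes were past a fold of 1.3 higher and 0 lower, where 2.83% of 6677 genes were higher and 7.92% lower. The median of the 10 genes was 0.30, beside -0.07 over all genes tested. PP-like cells, of which there were 73 and 84, gave a log2 ratio of -0.11 (-0.35 to 0.13) for the pair and had 201 and 172 CPM of Dnajb1 (-0.23). The sign for the pair turned with cells thinned to equal depth (0.50) or weighted equally (0.36), so no direction is read for PP-like cells.

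**Figure D2:**
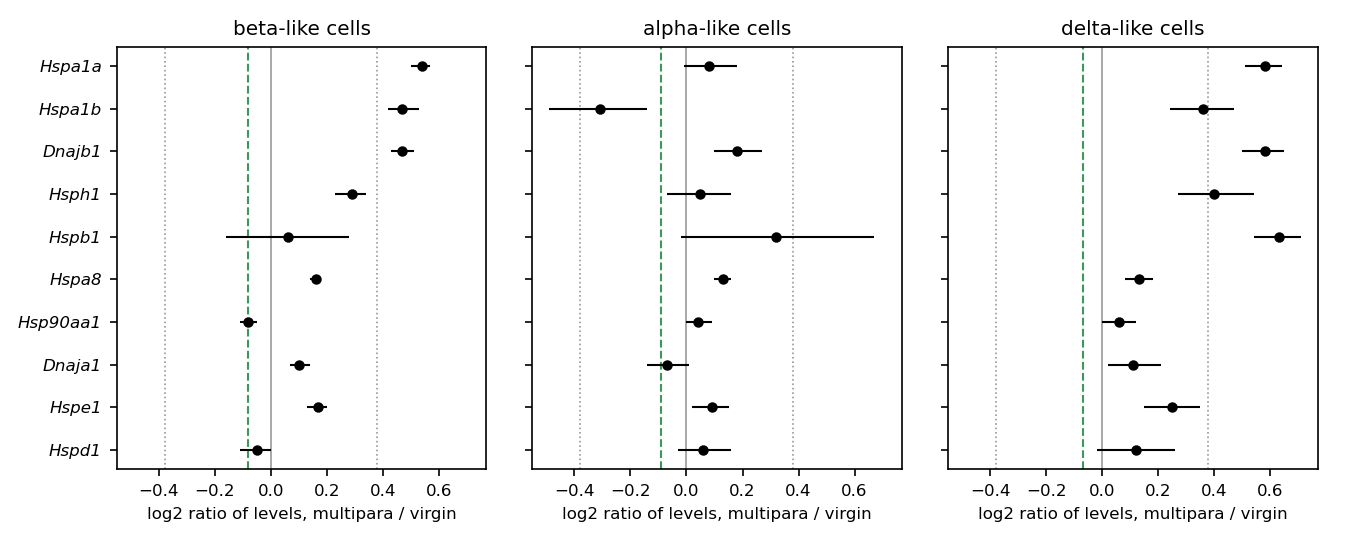
Log2 ratio of levels (multipara over virgin) of each gene in beta-like, alpha-like and delta-like cells, with exact 95% counting intervals; the dashed green line is the median of all genes with at least 100 UMIs and dotted lines mark a fold of 1.3. Hspa1a, Hspa1b and Dnajb1 lie to the right in beta-like and delta-like cells (0.36 to 0.58) and between -0.31 and 0.18 in alpha-like cells.

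Outside the endocrine classes the cells were fewer and 1 cell could carry a large part of a sum. Mesenchymal-like cells numbered 118 and 67, and their makeup differed between libraries. Cells with more UMIs of Rgs5, a pericyte marker, than of Dcn, a fibroblast marker, made up 61 of the virgin and 61 of the multipara cells, and the rest 57 and 6. Over all mesenchymal-like cells the pair had a log2 ratio of 1.24 (1.10 to 1.39), Hspb1 1.60 (1.36 to 1.84) and Dnajb1 -0.80 (-1.21 to -0.41). Among the Rgs5 cells alone, a split made after the data were seen, the pair was at 1723 and 3390.1 CPM (0.98, 0.79 to 1.16), Hspb1 at 733 and 1457 CPM (0.99, 0.71 to 1.28) and Dnajb1 at 243 and 305 CPM (0.33, -0.23 to 0.89). The pair and Hspb1 were higher in the multipara library in this subset as well, and the sign of Dnajb1 turned. Over all mesenchymal-like cells the log2 ratios of all genes tested spread widely, with 5th and 95th percentiles of -1.96 and 1.13.

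Macrophage-like cells (97 and 111) had the pair at 396 and 642 CPM (log2 ratio 0.70, interval 0.47 to 0.93) and Dnajb1 at 158 and 254 CPM (0.68, 0.32 to 1.05), while Hspa8 was at 2467 and 2217 CPM (-0.15, -0.26 to -0.05), which equals the median of -0.15 over all genes tested in that class. Without the highest cell of each library the pair gave 0.69 and Dnajb1 0.74, and with cells thinned to equal depth 0.37 and 1.25. Log2 ratios of all genes tested in macrophage-like cells had 5th and 95th percentiles of -0.85 and 0.68. Endothelial-like cells (257 and 199) differed little in the pair (-0.04, -0.18 to 0.11) and were lower in Dnaja1, at 838 and 705 CPM (-0.25, -0.38 to -0.12), and in Hspb1, at 1722 and 1474 CPM (-0.22, -0.31 to -0.14), although Hspb1 gave 0.05 with cells thinned to equal depth. Their Hspe1 (0.50, 0.24 to 0.76) and Hspd1 (0.56, 0.27 to 0.87) were higher in the multipara library, but 1 multipara cell held 28.8% of the Hspe1 and 32% of the Hspd1 UMIs. Without the highest cell of each library the log2 ratios were 0.10 (-0.18 to 0.38) and 0.09 (-0.24 to 0.42). In the 41 multipara T cell-like cells 1 cell held 56.7% of the Hsp90aa1 UMIs, and in the 43 multipara B cell-like cells 1 cell held 60% of the Hspa1a UMIs, so no direction is read from the ratios of these classes.

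The difference in beta-like cells was spread over many cells. Each cell was thinned to 5000 UMIs to remove differences in depth, which left 1552 virgin and 1361 multipara beta-like cells and left out 136 and 167. Virgin cells then had 1.68 UMIs of the pair on average, a median of 1 and a 90th percentile of 5, and multipara cells 2.45, 2 and 6. At least 1 UMI was found in 55.7% (53.2 to 58.2) of virgin and 68.8% (66.3 to 71.3) of multipara beta-like cells, and at least 5 UMIs in 12.1% and 17.8%. B cell-like cells, the class lowest in the pair in the virgin library, gave 10.3% (3.89 to 21.2) of 58 virgin cells at the same depth, and only 8 multipara cells of that class were deep enough to be thinned. In alpha-like cells at least 1 UMI was found in 37.6% and 39.1%, and the mean was 0.883 and 0.921. Delta-like cells had a mean of 6.26 and 9.24 UMIs, with at least 5 UMIs in 46.7% and 57.7% of cells. Before thinning, median depths were 30039 and 32529.5 UMIs in beta-like, 16292 and 17527 in alpha-like, 10224 and 10354 in delta-like and 2916 in virgin B cell-like cells.

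The pair was less evenly spread over cells than constitutive Hspa8. The 10% of thinned beta-like cells with the most UMIs of the pair held 41.7% (virgin) and 36.8% (multipara) of all its UMIs, against 22.2% and 21.4% for Hspa8. In delta-like cells these shares were 38.8% and 34.7% for the pair and 18.4% and 18.8% for Hspa8. A lower mean raises such a share by counting alone, and in delta-like cells, where both means are higher, the variance over cells was 10.5 and 10.6 times the mean for the pair and 1.62 and 1.98 times for Hspa8. Across cells of 1 library, which share depth after thinning, the Spearman correlation of the pair with Dnajb1 was 0.29 and 0.30 in beta-like, 0.47 and 0.44 in delta-like and 0.17 and 0.13 in alpha-like cells. With Hspa8 it was 0.15 and 0.12 in beta-like cells, and with Hspd1 0.06 and 0.11.

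**Figure D3:**
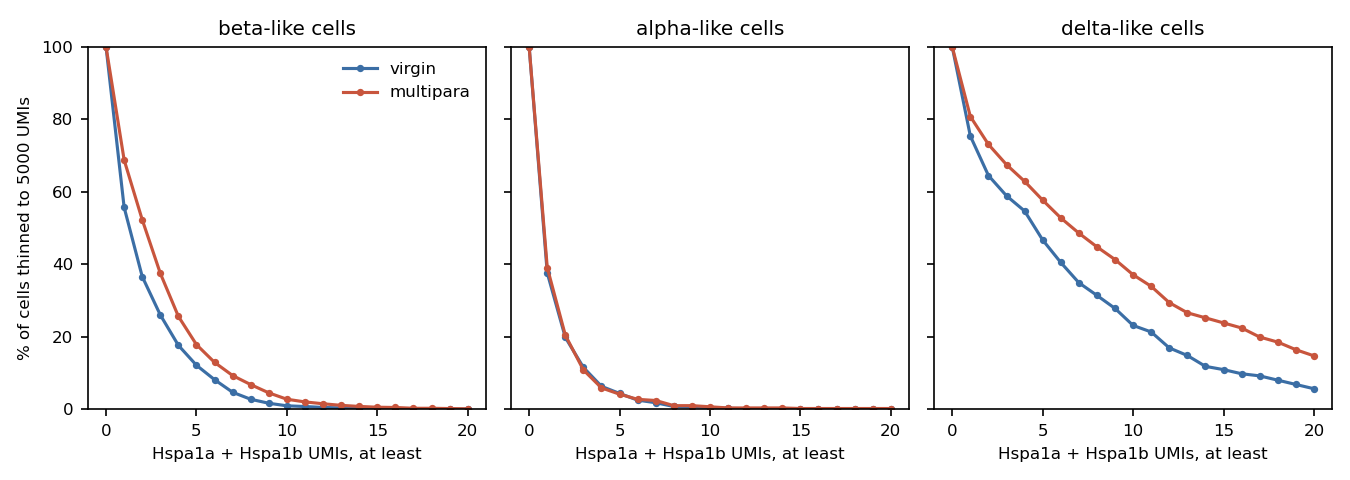
Share of beta-like, alpha-like and delta-like cells, thinned to 5000 UMIs each, that had at least the number of Hspa1a and Hspa1b UMIs on the x axis, by library (virgin blue, multipara red). The multipara curve lies above the virgin curve in beta-like (68.8% against 55.7% at 1 UMI) and delta-like cells (57.7% against 46.7% at 5 UMIs), and the curves nearly coincide in alpha-like cells.

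Because stress during cell preparation can induce these genes, the pair was also read beside the mitochondrial share of UMIs, a common sign of cell damage. Of barcodes gated as beta-like with no limit on this share, those with under 5% had 309 CPM (virgin) and 447 CPM (multipara), here per 1000000 UMIs outside mitochondrial genes. These were 1058 and 1079 barcodes, against 1017 and 1014 kept cells under 5%, so the ranges also hold barcodes not used elsewhere. Those with 5 to 10% had 452 and 674 CPM, those with 10 to 20% had 490.5 and 682 CPM, and the 44 virgin and 117 multipara barcodes with 20% or more had 853 and 1472 CPM. The pair was higher with a higher mitochondrial share in both libraries, except that the middle ranges of the multipara library hardly differed, and the multipara value was above the virgin value in each of the 4 ranges. Hspa8 stood at 729, 823, 841 and 512 CPM in these ranges of the virgin library and at 827, 919.9, 823 and 880.1 CPM in the multipara library. Kept beta-like cells had a median mitochondrial share of 4.27% (virgin) and 3.8% (multipara). In 5 narrower ranges of this share the log2 ratio of the pair lay between 0.42 and 0.67, and in 5 ranges of depth between 0.32 and 0.76. Alpha-like cells gave 175 and 167 CPM of the pair under 5% and 178 and 213 CPM at 5 to 10%. At 10 to 20%, on 47 and 39 barcodes, they gave 266 (205 to 339) and 101 (68.7 to 144) CPM, with the virgin value the higher. In delta-like cells the pair had a Spearman correlation with this share of -0.09 and -0.17 over thinned cells, against 0.12 and 0.18 in beta-like cells. The part of dissociation in these levels was not tested.

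**Figure D4:**
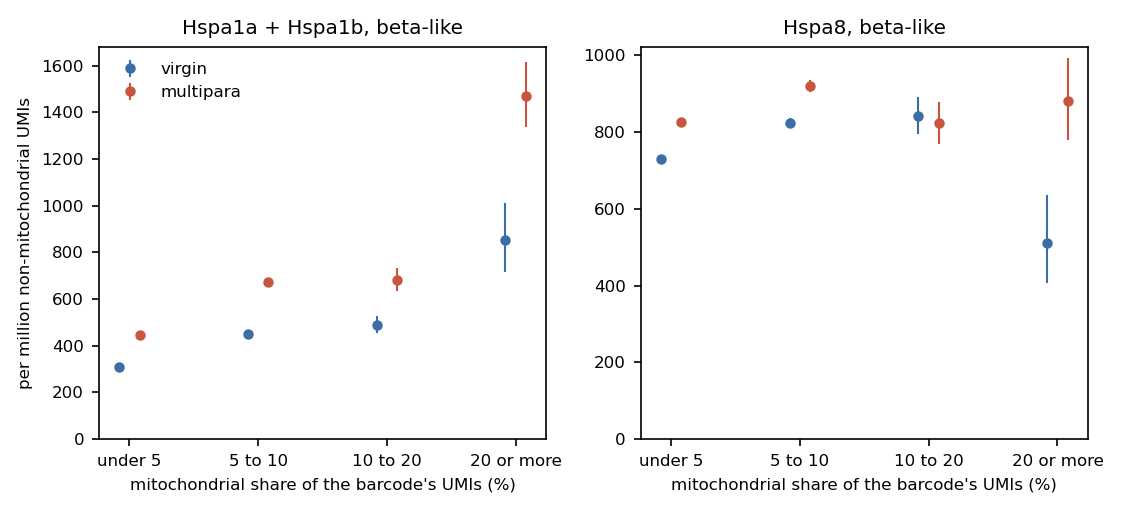
Level of the Hspa1a and Hspa1b pair (left) and of Hspa8 (right) in barcodes gated as beta-like, per 1000000 non-mitochondrial UMIs, by mitochondrial share of the barcode and library (virgin blue, multipara red), with exact Poisson 95% intervals. The pair goes from 309 to 853 among virgin and from 447 to 1472 among multipara barcodes. Barcodes at 10% or more, and some under 10%, were not among the cells used elsewhere.

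Other chaperones were counted from 4 lists. Of all genes tested in beta-like cells, 3.26% were past a fold of 1.3 higher and 8.33% lower. The median log2 ratio over these was -0.08, and list values near these are not read as a difference. Of 31 other cytosolic chaperones and co-chaperones, 30 had at least 100 UMIs in beta-like cells, of which 0 were past a fold of 1.3 higher and 2 were lower, with a median log2 ratio of -0.09. The highest were Dnajb4, an Hsp40, at 0.21 (0.13 to 0.30), and Hsbp1, which binds HSF1, at 0.21 (0.15 to 0.27). The lowest were the small heat shock protein gene Hspb8 at -1.27 (-1.85 to -0.73), on 100 and 39 UMIs, and the heat shock factor gene Hsf2 at -0.54 (-0.75 to -0.33). Hsf1 itself was at 14.1 and 13.9 CPM. The cytosolic chaperonin TRiC and its partner prefoldin had 13 subunits measured, with none past the fold and a median of -0.09, from 0.05 for Pfdn6 and 0.00 for Pfdn2 to -0.21 for Tcp1 and -0.28 for Cct4.

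Other mitochondrial chaperones and proteases, 13 genes, had a median log2 ratio of 0.02 in beta-like cells, beside -0.08 over all genes. Past the fold 3.26% of all genes were higher and 8.33% lower, and of the 13 listed genes 0 were higher and 1 was lower. They ran from the proteases Htra2 (0.22, -0.07 to 0.50) and Clpp (0.18, 0.09 to 0.27) to the unfoldase Clpx (-0.29, -0.41 to -0.17) and the nucleotide exchange factor Grpel2 (-0.38, -0.58 to -0.19). The 16 chaperones of the endoplasmic reticulum had a median of 0.19 in beta-like cells, with 15 log2 ratios above 0, 2 genes past the fold higher and 0 lower. Sdf2l1 (0.49, at 155 and 219 CPM) and Creld2 (0.44, at 57 and 77.5 CPM) were the highest, and Sil1 (0.03) and Canx (-0.11) the lowest. In delta-like cells, where 4 of the 10 cytosolic and mitochondrial genes were past the fold, the median of the endoplasmic reticulum list was -0.07 with 0 past it in either direction. Over all genes tested in delta-like cells the median was also -0.07, with 2.83% past the fold higher and 7.92% lower. Beside the 10 genes, Bag3 (0.63), Dnaja4 (0.48) and Dnajb4 (0.44) were past the fold higher in delta-like cells, and Hspa14 (-0.49) was past it in the other direction, 4 of the 27 measured cytosolic genes that are named here after their values were seen.

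A further list held genes known to be switched on during tissue dissociation, heat shock genes left out. In delta-like cells some of them differed between libraries beside the pair. Of 28 such genes, 27 had at least 100 UMIs there, of which 10 were past a fold of 1.3 higher and 1 was lower. Of all genes tested there, 2.83% were higher and 7.92% lower. The median log2 ratio of the listed genes was 0.29, beside -0.07 over all genes. Summed, the listed genes stood at 19759.9 CPM (virgin) and 24829 CPM (multipara). In beta-like cells, 2 of the 28 were past the fold higher and 2 lower, where 3.26% and 8.33% of all genes were. The median was 0.10, beside -0.08 over all genes, and the sums were 9837 and 10479.8 CPM. The highest there were Zfp36 (0.58) and Atf3 (0.51), and the lowest Klf2 (-0.46) and Gadd45b (-0.63). The other lists had medians of -0.05 (cytosolic), -0.05 (TRiC and prefoldin), -0.06 (mitochondrial) and 0.06 (endoplasmic reticulum) in alpha-like cells, and of -0.06 (cytosolic), -0.10 (TRiC and prefoldin) and -0.06 (mitochondrial) in delta-like cells. Over all genes tested the medians were -0.09 in alpha-like and -0.07 in delta-like cells. For the dissociation list in alpha-like cells the median was -0.05 and the sums were 14966 and 14859.6 CPM. Over thinned cells the pair had a Spearman correlation with the sum of the list of 0.38 and 0.28 in delta-like, 0.11 and 0.18 in beta-like and 0.20 and 0.24 in alpha-like cells. Their part in the differences between libraries was not tested.

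**Figure D5:**
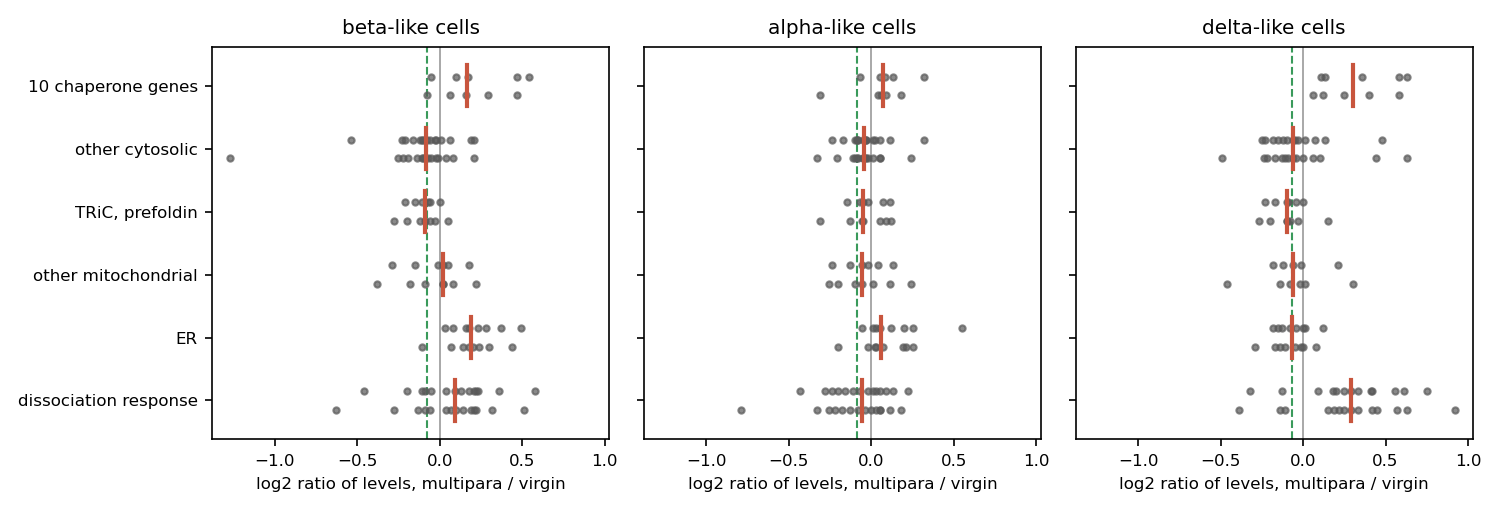
Log2 ratio of levels (multipara over virgin) of each gene with at least 100 UMIs, by gene list, in beta-like, alpha-like and delta-like cells; red bars are list medians and the dashed green line is the median of all genes. The 10 chaperone genes have medians of 0.16, 0.07 and 0.30, and the dissociation response list 0.10, -0.05 and 0.29.

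Among the genes whose levels followed the pair most closely over classes were Btg2 and Fos (Spearman correlation 0.93 each), Dnajb4 (0.92) and Apbb2 (0.90). This was taken over 18 points, which were the 9 classes of both libraries, among 2304 genes that averaged 50 CPM or more, and the points share libraries and the weight of hormone UMIs. Btg2 and Fos are immediate early genes and belong to the dissociation response list. Among the 10 genes, Dnajb1 followed the pair at 0.94, Hspb1 at 0.61, Dnaja1 at 0.41 and Hspa8 and Hsp90aa1 at 0.38. Hsph1 (0.12), Hspd1 (0.11) and Hspe1 (-0.29) did not follow it.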

How the data were processed

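Single-cell RNA sequencing of islet cells was analysed from 2 libraries, 1 virgin and 1 multipara. What the authors deposited is a matrix of raw UMI counts for each library, not normalized. The submitters' processing notes name Cell Ranger 3.1.0, Seurat 3.0 and the mouse build GRCm38 (mm10). The libraries held 94853806 and 82503776 UMIs.

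The study's own limits were applied to barcodes (over 200 and under 6000 genes, under 60000 UMIs, under 10% mitochondrial UMIs), and cells that Scrublet (scanpy 1.11.5) called doublets, run per library, were removed (61 of 4391 and 44 of 3374 cells, 1.39% and 1.3%, below the prior rates of 3.51% and 2.7%, so some can remain). Classes were gated on the share of a cell's UMIs from Ins1 and Ins2 (15%), Gcg (5%), Sst (3%) or Ppy (15%), or on at least 6 UMIs of the markers of a non-endocrine class. Hormone gates were set at low points of the histograms of these shares, seen in the data. No class was corrected for free RNA.

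UMIs were summed per class and library and scaled to 1000000. Levels have exact Poisson intervals, shares exact Clopper-Pearson intervals and log2 ratios exact conditional binomial intervals, all at 95%. With 1 library per group no test between groups was possible, and a fold of 1.3 among genes whose UMIs in the 2 libraries add up to 100 or more stands for a call. For genes named from the lists, the 2 highest and 2 lowest log2 ratios in beta-like cells were taken, and the 5 genes most like the pair over classes, of which 1 is not reported here. The 10 genes and the lists were chosen with earlier results of these data known. The intervals of log2 ratios were computed on Poisson counts simulated from the beta-like sums as a check of the code. Such counts meet the assumption of the interval, so the check cannot speak for spread between cells or mice. edgeR 4.0.16 gave TMM factors for 1 alternative; numpy 2.4.6, scipy 1.17.1, pandas 2.3.3 and matplotlib 3.10.9 were used under python 3.11.15 and R 4.3.3. Gene positions came from GENCODE M21 and promoters from RefSeq, both on GRCm38.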

Additional observations from a re-analysis of the deposited data

Results flagged for a closer look

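In the following genes and classes the interval of the log2 ratio (multipara over virgin) lay on the other side of 0 from that in beta-like cells, and the difference between classes was not tested. Hspa1b was at -0.31 in alpha-like cells, against 0.47 in beta-like cells. Dnajb1 was at -0.80 in mesenchymal-like cells, against 0.47, and turned to 0.33 among cells with more Rgs5 than Dcn. For Hsp90aa1 the ratio was 0.43 (mesenchymal-like) and 0.45 (T cell-like), against -0.08. Among cells with more Rgs5 than Dcn the former was 0.24 (-0.05 to 0.53), an interval that includes 0. Without the highest T cell-like cell of each library the latter was -0.37. Dnaja1 was at -0.25 in endothelial-like cells, against 0.10. Hspa8 was at -0.15 in macrophage-like and -0.68 in B cell-like cells, against 0.16. Hspe1 was at -0.61 in mesenchymal-like, -0.31 in macrophage-like and -0.57 in B cell-like cells, against 0.17. Among cells with more Rgs5 than Dcn it was at -0.47 (-1.13 to 0.17), an interval that includes 0. Over all genes tested the median log2 ratio was -0.15 in macrophage-like and -0.18 in B cell-like cells. As stated above, no direction is read for T cell-like and B cell-like cells.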

How the results depend on the processing

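No paired analysis was possible because each group was 1 library. For the Hspa1a and Hspa1b pair in beta-like cells every alternative kept a log2 ratio between 0.51 and 0.70, past the fold of 1.3, against 0.52 as reported. It was 0.61 with TMM scaling, 0.57 per 1000000 UMIs outside hormone genes and 0.70 with equal weight for each cell. The median of the 10 genes, 0.16 as reported, was 0.25, 0.21 and 0.28 under these and 0.24 with no cell filter. With TMM scaling the list medians in beta-like cells were 0.00 for TRiC and prefoldin, 0.28 for the endoplasmic reticulum and 0.19 for dissociation response genes. Equal weight for each cell gave 0.14 for the endoplasmic reticulum and 0.16 for dissociation response, and scaling outside hormone genes gave 0.24 for the endoplasmic reticulum. The log2 difference of the pair between delta-like and beta-like cells, 1.85 in both libraries, was 0.95 and 0.94 outside hormone genes, which is set by the larger share of hormone UMIs in beta-like cells. It was 1.93 and 1.91 with a looser gate, and 1.67 in the multipara library with equal weight for each cell. Of the 10 genes, 3 were past a fold of 1.3 higher in beta-like cells, 0 were past a fold of 1.5 (1.54% of all genes) and 4 past 1.2 (5.55%). Over 810 values of single genes under the alternatives, 62 had another sign than the value reported, and 4 of these had been past a fold of 1.3 as reported. These 4 were Dnajb1 in mesenchymal-like cells (0.33 among Rgs5 cells), Hsp90aa1 in T cell-like cells (-0.29 with equal weight, -0.37 without the highest cell of each library) and Hspd1 in T cell-like cells (-0.12 with equal weight). The first rests on fewer cells by construction, as does the value without the highest cell, and for equal weight the cause was not tested. Leaving out the highest cell of each library and the split by Rgs5 were chosen after the data were seen. Thinning left 5 multipara mesenchymal-like, 4 T cell-like and 8 B cell-like cells, and a mitochondrial limit of 5% left 13 T cell-like and 6 B cell-like cells, so these were not run. Depth limits Hspb1 in beta-like cells, with 344 and 337 UMIs, whose log2 ratio of 0.06 became 1.44 with equal weight for each cell.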

Other observations

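Barcodes with at most 200 genes, 445 virgin and 524 multipara, were left out of the classes. Mitochondrial genes gave a median of 88% and 78.5% of their UMIs. Per 1000000 of their remaining UMIs the Hspa1a and Hspa1b pair stood at 427 (319 to 560.3) among virgin and 425 (351 to 509) among multipara barcodes, beside 361 and 515 in beta-like cells on the same scale. Hormone genes took 37.3% and 34% of these remaining UMIs. Hspb1 had 6 UMIs over these virgin and 0 over these multipara barcodes.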
